A study of Rattus norvegicus with 6 samples.

Results

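Messenger RNA of the integrin subunits that bind collagen or laminin was compared between young and old vascular smooth muscle (VSM) cells. The group comprised Itga1, Itga2, Itga10 and Itga11, whose products bind collagens, Itga3, Itga6 and Itga7, whose products bind laminins, and Itgb4, the β subunit that pairs with α6. The genes were chosen by symbol, and all 8 were among the 14475 genes of the count table. VSM cells had been cultured from the soleus feed artery (SFA), which supplies the soleus muscle, of male Fischer 344 rats aged 4 months (young, n = 3) or 24 months (old, n = 3). No genetic change or treatment separated the groups, both were grown in the same medium with serum, and polyadenylated RNA was sequenced from stranded libraries, 1 per culture. The values therefore describe cultured cells, not the vessel wall.

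Integrins are αβ receptors of the plasma membrane that join the extracellular matrix to the actin cytoskeleton. The collagen-binding α subunits carry an inserted domain that holds the collagen, whereas the laminin-binding α subunits lack it, and both kinds work with β1. The α6 subunit can also pair with β4, whose long cytoplasmic tail links laminin to intermediate filaments in epithelial hemidesmosomes. In smooth muscle, α1β1 and α7β1 are receptors for the basement membrane around each cell, while α11β1 is known as a receptor for fibrillar collagen on fibroblasts and other mesenchymal cells.

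Total counts per library ranged from 44235674 to 59700887, and Spearman's rho across genes between libraries of a group was 0.973 to 0.991. All 7 smooth muscle markers (Acta2, Myh11, Tagln, Cnn1, Des, Smtn and Lmod1) were in the table, with summed levels of 11177 to 20885 CPM (counts scaled to library size with TMM factors) in young and 3445 to 5553 CPM in old, and each had a negative log2 fold change. The 6 fibroblast markers in the table, of 7 listed, all had positive log2 fold changes, with sums of 175 to 436 CPM in young and 498 to 1313 CPM in old. The summed marker levels moved with the age groups, but not every marker did. Old libraries were all below the young ones for 6 smooth muscle markers, with overlap for Des. They were all above for 2 fibroblast markers, Pdgfra and Dcn, with overlap for Lum, Dpt, Pi16 and Cd34. The shares of all genes in these directions were 14.7% and 14.5%. The part of these markers in the results below was not tested. In RNA from a whole culture, fewer cells of a type and less RNA per cell cannot be told apart.

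RefSeq promoter sequences (build GRCr8) were matched for 5 of the 8 genes and not for Itga6, Itga7 and Itgb4. Those of Itga1 and Itga3, whose old libraries were all below the young ones, are shown. That of Itga11, which had the most counts and whose groups overlapped, is shown beside them. Each runs 5′ to 3′ on the strand of the gene, from 250 bases before to 50 bases after the start site in the table, with matches to the GC box GGGCGG on either strand in capitals. All motifs were searched on both strands.
Itga1, GRCr8 chr2:48545234-48545533, minus strand: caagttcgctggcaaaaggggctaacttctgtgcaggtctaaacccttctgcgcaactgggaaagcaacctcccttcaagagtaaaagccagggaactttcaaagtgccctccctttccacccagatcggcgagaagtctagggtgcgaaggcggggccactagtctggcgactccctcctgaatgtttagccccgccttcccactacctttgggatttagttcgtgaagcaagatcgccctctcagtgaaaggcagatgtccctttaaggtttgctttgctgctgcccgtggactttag
Itga3, GRCr8 chr10:80518852-80519151, minus strand: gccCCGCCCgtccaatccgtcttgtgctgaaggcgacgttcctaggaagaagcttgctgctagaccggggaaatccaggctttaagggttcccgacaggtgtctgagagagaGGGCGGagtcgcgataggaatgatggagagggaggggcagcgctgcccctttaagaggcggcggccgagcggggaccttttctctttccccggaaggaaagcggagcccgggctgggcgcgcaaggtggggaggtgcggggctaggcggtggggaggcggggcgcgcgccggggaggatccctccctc
Itga11, GRCr8 chr8:72041182-72041481, plus strand: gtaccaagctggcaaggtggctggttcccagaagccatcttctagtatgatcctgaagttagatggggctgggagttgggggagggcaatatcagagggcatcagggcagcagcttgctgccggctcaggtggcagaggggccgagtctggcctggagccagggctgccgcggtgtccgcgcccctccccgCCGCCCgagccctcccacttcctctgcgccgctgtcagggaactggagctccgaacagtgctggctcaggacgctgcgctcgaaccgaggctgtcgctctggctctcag
For Itga1 and Itga3 the start site in the table lies inside the annotated gene, as that of one transcript among several. The Itga1 window held 0 GC boxes, that of Itga3 held 2 and that of Itga11 held 1, and 33.1% of 33469 promoters of this length held at least 1. The TEAD motif GGAATG was found once for Itga3 and in 14.2% of all promoters. None of these 3 windows held the TATA box TATAAA, the AP-1 motif TGANTCA or the SRF CArG box (14.2%, 7.33% and 1.64% of all promoters). These matches describe letters in a window, and the matches found did not overlap each other.

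**Figure D1:**
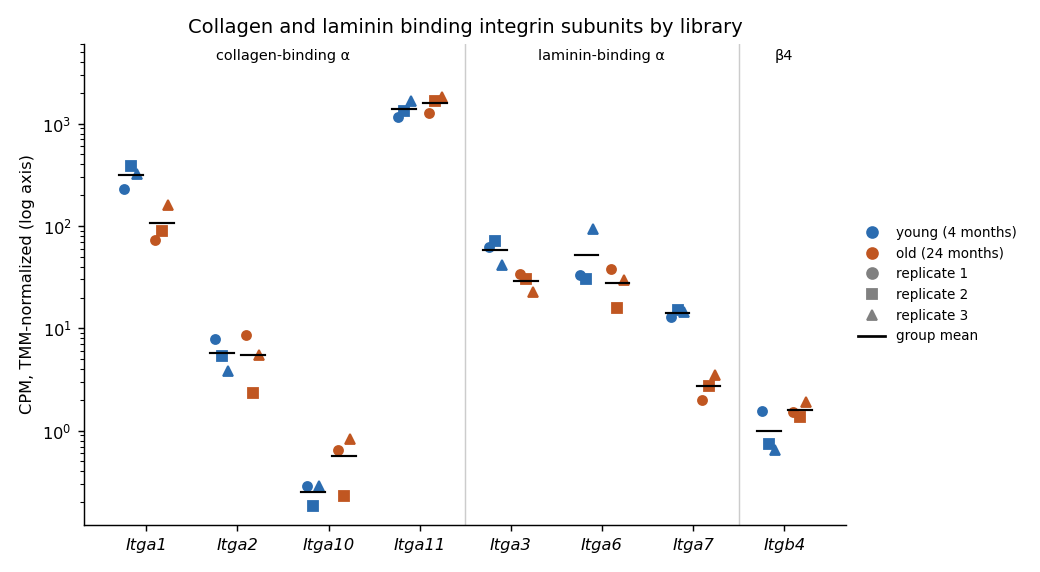
CPM (TMM-normalized, log axis) of the 8 subunits in each library, with young in blue, old in orange, marker shapes for replicates and black lines for group means. Young and old libraries were apart for Itga1, Itga3 and Itga7, and overlapped for the other 5 genes.

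The comparison of old with young addressed how the expression of these receptors in VSM cells differs with age. All 3 laminin-binding α subunits had negative log2 fold changes, and for Itga3 and Itga7 as well as the collagen-binding subunit Itga1 every old library was below every young one. Old means amounted to 34.2% of the young mean for Itga1, 49.2% for Itga3 and 19.3% for Itga7. These were 3 of the 8 members, beside 14.7% of all genes in that direction and 29.2% in either. No member had its old libraries all above the young ones. Over the 8 members 5 log2 fold changes were negative and 3 positive, with a median of -0.48, whereas the median of all genes was 0.02. In edgeR's quasi-likelihood test, where a call needed an adjusted p under 0.05 together with a log2 fold change of 1 or more in size, 0 of the 8 members were called, as against 0.00691% of all genes. At an unadjusted p under 0.05 the test gave 3 members, all lower in old, beside 22.6% of all genes in either direction and 11.5% in that direction. With the limit on the adjusted p relaxed to 0.1, edgeR called these 3 members, beside 2.63% of all genes and 1.52% in that direction. The DESeq2 Wald test with the same thresholds called the same 3, Itga1, Itga3 and Itga7, beside 5.56% of all genes in either direction, 3.31% as lower and 2.25% as higher. limma-voom called 0 of the 8, and 0 of all 14475 genes.

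Itga7 (ENSRNOG00000007905) encodes the laminin receptor subunit typical of muscle. Its levels were 13.0, 15.0 and 14.6 CPM in young replicates 1, 2 and 3 and 1.99, 2.75 and 3.47 CPM in old replicates 1, 2 and 3. The gap between the groups exceeded the spread within either, and the young replicates had a coefficient of variation of 7.43%. The log2 fold change was -2.37 ± 0.23 (SE, edgeR adjusted p = 0.0531), and DESeq2 gave an adjusted p of 7.83e-19. Behind these values were 588 to 905 counts in young and 99 to 186 counts in old libraries. Itga7 was the member nearest to the edgeR threshold and passed it without old replicate 1 (log2 fold change -2.19, adjusted p = 0.0262 from edgeR), a setting in which 5.06% of all genes were called. With any other single library left out its adjusted p from edgeR was 0.0728 to 0.225. It also passed when genes under 1 CPM were removed first (adjusted p = 0.0494 from edgeR). Of the markers of skeletal muscle, a tissue where Itga7 is also abundant, 4 of 13 were in the table, 3 with negative and 1 with a positive log2 fold change. They summed to 74.3 to 257 CPM in young and 8.66 to 18.6 CPM in old. Most of it was Acta1, an actin gene whose reads may be shared with other actins. In old replicate 3, which had the lowest sum, Acta1 had 5.97 CPM and Actn2 2.11 CPM. Acta1 alone had an unadjusted p under 0.05 (log2 fold change -3.51, edgeR adjusted p = 0.0644), and the groups overlapped for Actn2, Ttn and Cdh15. Pax7, Myf5, Myod1, Myog and Ckm had no row among the genes analysed here, which does not show that they had no counts. The part of such RNA in the result was not tested.

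Itga3 (ENSRNOG00000004276), a receptor subunit for laminins with α5 or α3 chains, had 63.0, 71.7 and 41.9 CPM in young libraries against 34.0, 30.4 and 22.5 CPM in old libraries. The lowest young library, replicate 3, was still above the highest old library. Its log2 fold change was -1.02 ± 0.24 (SE, edgeR adjusted p = 0.09999), with an adjusted p of 0.00283 from DESeq2. The value sat on the fold threshold, and the DESeq2 call was lost without young replicate 1, young replicate 2 or old replicate 3 (log2 fold changes of -0.98, -0.87 and -0.88).

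Itga6 (ENSRNOG00000001518) had 33.0, 30.1 and 93.6 CPM in young libraries against 37.8, 15.7 and 29.4 CPM in old libraries. Young replicate 3 stood above all others and the remaining 5 libraries overlapped between the ages. The log2 fold change of -0.92 ± 0.53 (SE, edgeR adjusted p = 0.335) became -0.19 without that library. Young replicate 3 also had the highest Itgb1 level, 5700 CPM against 3028 and 3334 CPM in the other young libraries. The pericyte markers with a row, 4 of 6, were mixed in that library. Notch3 (81.6 CPM against at most 11.2 CPM elsewhere) and Cspg4 (440 CPM) were highest there. Abcc9 was lowest there (0.122 CPM), and Pdgfrb (851 CPM) was below old replicates 2 and 3 (977 and 1411 CPM). Their sum was 1373 CPM there and 1520 CPM in old replicate 3, and their part was not tested.

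Itgb4 (ENSRNOG00000005580) was near 1 CPM, with 1.57, 0.748 and 0.651 CPM in young libraries against 1.53, 1.37 and 1.90 CPM in old libraries. Young replicate 1 reached the range of the old libraries, while the other young libraries lay below it. The log2 fold change was 0.69 ± 0.40 (SE, edgeR adjusted p = 0.339), and without young replicate 1 it was 1.19 in edgeR (adjusted p = 0.196) and 1.18 in DESeq2, which then called it (adjusted p = 0.0237). Of the hemidesmosome genes Plec, Dst and Col17a1, 0 were called by edgeR or DESeq2, with log2 fold changes from -0.21 to 0.09. The epithelial markers Epcam, Cdh1, Krt5, Krt14 and Krt15 had no row among the genes analysed here. Neither had the Schwann cell marker Sox10 or the endothelial markers Cdh5, Cldn5 and Tie1. A missing row does not show that a gene had no counts. The Schwann cell markers with a row, 3 of 7, summed to 13.5 to 75.5 CPM in young and 54.9 to 86.4 CPM in old, with positive log2 fold changes for all 3, and the 5 of 9 endothelial markers with a row summed to 10.9 to 17.1 CPM in young and 13.6 to 20.0 CPM in old. Their part in the values of Itga6 and Itgb4 was not tested.

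Itga1 (ENSRNOG00000053550) encodes the α subunit of a receptor for basement membrane collagen IV. Its levels were 229, 387 and 323 CPM in young libraries against 72.9, 88.8 and 160.0 CPM in old libraries. All old libraries were below the lowest young library, with old replicate 3 nearest to it. The log2 fold change was -1.55 ± 0.34 (SE, edgeR adjusted p = 0.0924), with an adjusted p of 0.000342 from DESeq2. With each library left out in turn it lay between -1.95 and -1.33 in edgeR, and DESeq2 called it every time with adjusted p of at most 0.0218. In the RefSeq annotation, which may not be the one behind the Ensembl IDs of the table, the gene Pelo overlaps Itga1. The strand setting of the counting is not given, and Pelo itself had 45.2 ± 4.30 CPM in young and 43.6 ± 5.05 CPM in old (SD, n = 3 each), with a log2 fold change of -0.05 (adjusted p = 0.826 from edgeR).

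Itga11 (ENSRNOG00000006723) had 1168, 1339 and 1673 CPM in young libraries against 1263, 1665 and 1823 CPM in old libraries. The groups overlapped almost fully, and with 52739 to 97689 counts per library counting error was small beside the spread between cultures. Its log2 fold change was 0.18 ± 0.21 (SE, edgeR adjusted p = 0.611, DESeq2 adjusted p = 0.645).

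Itga2 (ENSRNOG00000058111), a receptor subunit for fibrillar collagen on platelets and epithelia, had 7.82, 5.40 and 3.87 CPM in young libraries against 8.66, 2.35 and 5.52 CPM in old libraries. The old libraries held both the highest and the lowest value, and the log2 fold change was -0.05 ± 0.49 (SE, edgeR adjusted p = 0.963). Itga10 (ENSRNOG00000021217), known from cartilage, was near the lower end of detection, with 13, 11 and 14 counts in the young and 32, 12 and 44 counts in the old libraries. Old replicate 2 fell within the young range and the other old libraries lay above it, with a log2 fold change of 1.17 ± 0.53 (SE, edgeR adjusted p = 0.248). The standard error of Itga10 was 0.53 with the counts as deposited and 0.52 with halved counts.

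**Figure D2:**
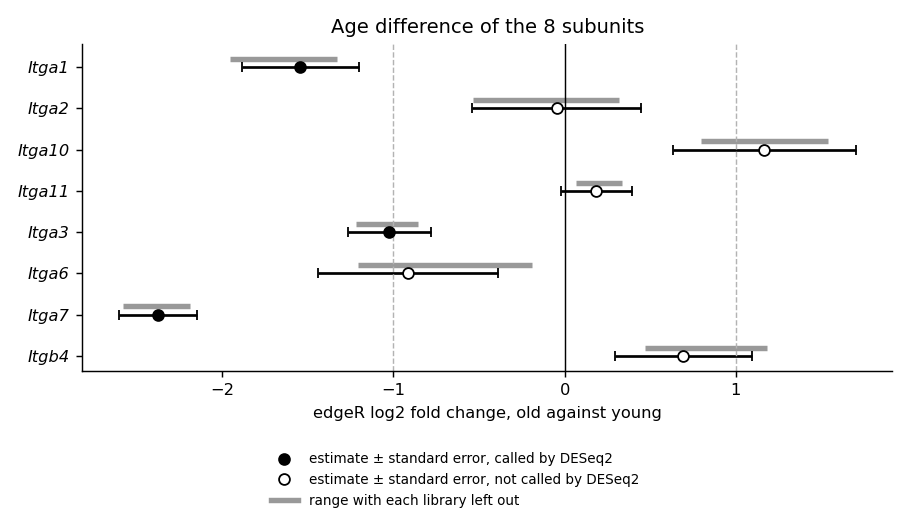
edgeR log2 fold changes of old against young for the 8 subunits, with standard errors as black bars, the range with each library left out as gray bars, filled circles for genes called by DESeq2 and dashed lines at the fold threshold. Itga7, Itga1 and Itga3 lie at -2.37, -1.55 and -1.02, and the gray bar of Itga6 reaches -0.19.

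The make-up of the α subunit counts was then compared within each library, which does not depend on how libraries are scaled. Counts were not divided by transcript length, so a share may be compared between libraries but not between genes. Itga11 took 77.1%, 72.4% and 77.8% of the counts on the 7 α subunits in the young and 89.0%, 92.2% and 89.2% in the old libraries. The share of Itga1 was 15.1%, 20.9% and 15.0% in the young and 5.14%, 4.92% and 7.83% in the old libraries. For both genes the groups were apart (exact permutation test, two-sided, p = 0.1, the smallest that 3 libraries against 3 can give). For every 1000 counts on Itga11 there were 226 ± 54.7 counts on Itga1 in young and 66.3 ± 18.8 in old VSM cells (SD, n = 3 each). The 4 collagen-binding subunits together took 93.2% ± 0.458 of the counts in young and 96.5% ± 1.44 in old (SD, n = 3 each, exact permutation p = 0.1). All old libraries were above the young ones, and Itga11 made up a larger part of these counts in old than in young libraries. Shares are parts of a whole, so a larger share of Itga11 and smaller shares of other subunits are not separate results. The level of Itga11 itself had a log2 fold change of 0.18 (edgeR adjusted p = 0.611). Among the laminin-binding subunits, Itga7 went from 0.784% ± 0.0947 to 0.154% ± 0.0148 of the counts (SD, n = 3 each, exact permutation p = 0.1), while the shares of Itga3 and Itga6 overlapped between the groups.

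**Figure D3:**
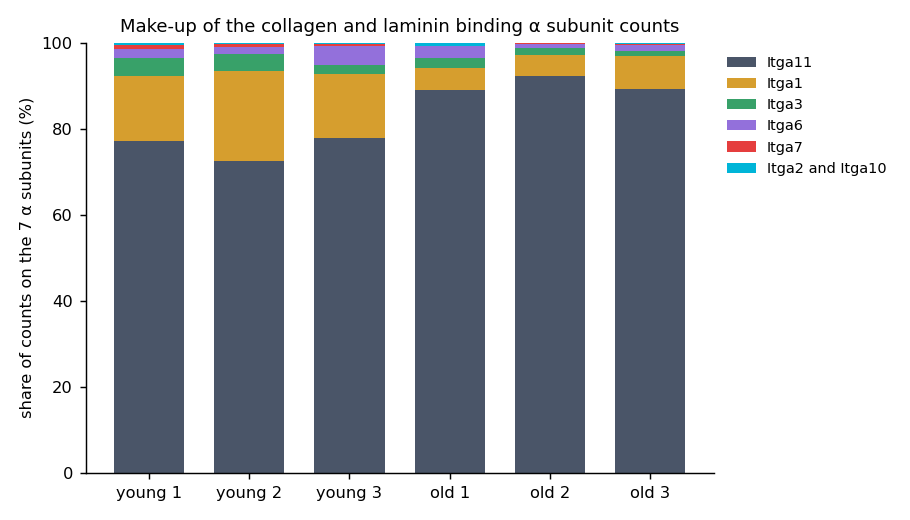
Share of the counts on the 7 α subunits (percent, not divided by length) taken by each subunit in each library, stacked from 0. The Itga11 block covers 72.4% to 77.8% in young and 89.0% to 92.2% in old libraries, and the Itga1 block above it is thinner in the old libraries.

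The common partner Itgb1 (ENSRNOG00000010966) was itself lower in old VSM cells, at 3028, 3334 and 5700 CPM in young libraries against 2816, 1759 and 2121 CPM in old libraries. The groups did not overlap, and the log2 fold change was -0.85 ± 0.31 (SE, edgeR adjusted p = 0.189, DESeq2 adjusted p = 0.0502). Each α subunit was therefore set against Itgb1 in the same library. The log2 ratio of Itga7 to Itgb1 differed by -1.59 between old and young, with all old libraries below the young ones. The ratio of Itga11 differed by 1.00 and that of Itga10 by 1.83, with all old libraries above. These 3 had the smallest p that the design allows (exact permutation p = 0.1, adjusted p = 0.233 over 7 subunits). With Itgb1 lower in old, the ratio of a gene that does not change rises too. The log2 fold change of Itga11 itself was 0.18, and its groups overlapped in CPM. Those of Itga10 also overlapped in CPM, and it had 11 to 44 counts per library. The share of all genes with ratios to Itgb1 apart between the groups was not computed. The ratio of Itga1 differed by -0.78 with overlapping groups (exact permutation p = 0.2), and those of Itga3 and Itga6 by -0.19 and 0.02 (exact permutation p = 0.8 and 1). With each library left out, the difference of Itga1 lay between -1.13 (without old replicate 3) and -0.36 (without old replicate 1). The groups were apart without old replicate 3 or young replicate 3 (-1.02), each with an exact permutation p of 0.2, the smallest possible there. Without young replicate 3 they were only just apart, with young replicate 1 at -3.725 and old replicate 3 at -3.728.

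**Figure D4:**
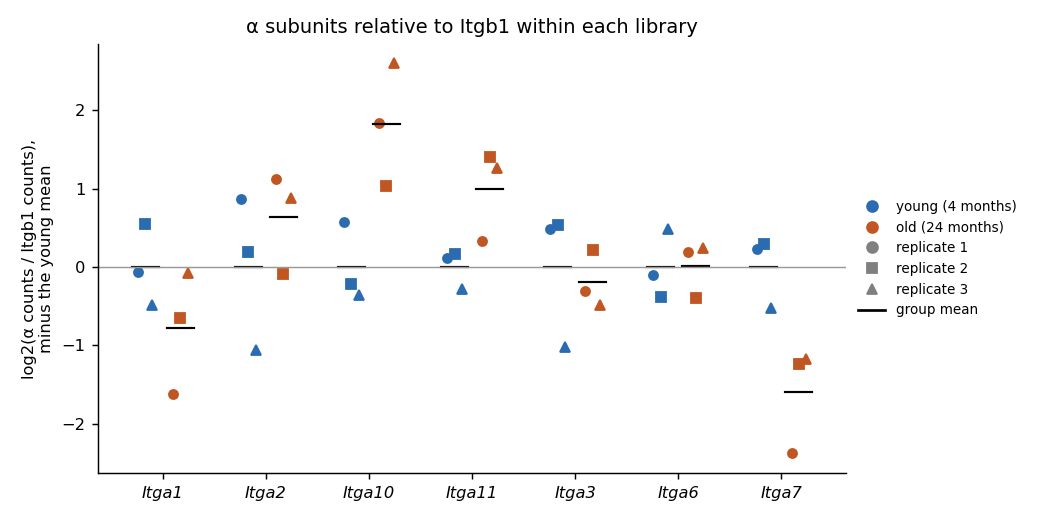
Log2 ratio of each α subunit to Itgb1 in each library, less the young mean of that subunit, with colors and shapes for age and replicate and black lines for group means. Old libraries lie apart from young ones for Itga7 (below) and for Itga10 and Itga11 (above).

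The genes around these receptors were taken from lists of ligands, other receptors and intracellular partners. Of 77 listed genes 66 were in the table, edgeR called 0 of them, and DESeq2 called 8 as lower and 3 as higher in old VSM cells, beside 3.31% and 2.25% of all genes. In edgeR 27 of the 66 had an unadjusted p under 0.05, beside 22.6% of all genes. Among 14 collagen chains of the ligands, 4 had negative and 10 positive log2 fold changes, the median was 0.38, and DESeq2 called Col4a3 as lower and Col3a1 as higher. Col3a1, the chain of fibrillar collagen III, had 13068 ± 2716 CPM in young and 32351 ± 9242 CPM in old (SD, n = 3 each), with a log2 fold change of 1.31 (edgeR adjusted p = 0.111). Col4a3 had the largest absolute log2 fold change of the listed genes, -6.33 ± 1.08 (SE, edgeR adjusted p = 0.0636). Its young libraries ranged from 3.57 to 44.9 CPM and all old ones were below 0.3 CPM.

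Laminin chains differed in both directions. Of 12 laminin chains and nidogens, 8 had negative and 4 positive log2 fold changes, and the median was -0.12. Lama5, the α5 chain of vascular basement membranes, had 16.1, 42.3 and 32.4 CPM in young libraries against 3.62, 2.87 and 4.93 CPM in old libraries, which gave a log2 fold change of -2.99 ± 0.40 (SE, edgeR adjusted p = 0.0531, DESeq2 adjusted p = 1.92e-11). Lama2, the α2 chain of muscle basement membrane, had 53.3, 29.3 and 39.9 CPM in young libraries against 100.3, 108 and 106 CPM in old libraries, which gave a log2 fold change of 1.36 ± 0.21 (SE, edgeR adjusted p = 0.0574, DESeq2 adjusted p = 1.93e-06). The groups did not overlap for either chain, and the old libraries of Lama2 lay within 8 CPM of each other.

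Of 5 other receptors for collagen or laminin, 3 had negative and 2 positive log2 fold changes. Old libraries were all below the young ones for 2 and all above for 2, beside 14.7% and 14.5% of all genes. DESeq2 called only Bcam, a receptor for the laminin α5 chain, as lower. It had 0.487, 1.16 and 1.51 CPM in young libraries against 0.121, 0.192 and 0 CPM in old libraries (log2 fold change -3.32, adjusted p = 0.127 from edgeR). Of the 6 tetraspanins and basigin, 2 had negative and 4 positive log2 fold changes, the median was 0.18, and 0 were called by edgeR or DESeq2. The 2 with an unadjusted p under 0.05 lay in opposite directions and were singled out after their values were seen. Cd151, a tetraspanin that binds α3β1, α6β1 and α7β1, had 496 ± 74.2 CPM in young and 262 ± 27.4 CPM in old (SD, n = 3 each). Its log2 fold change of -0.92 ± 0.15 (SE, edgeR adjusted p = 0.0600, DESeq2 adjusted p = 4.03e-06) was short of the fold threshold. Cd9, another tetraspanin, had 243 ± 75.2 CPM in young and 445 ± 35.5 CPM in old (SD, n = 3 each). Its log2 fold change of 0.88 ± 0.22 (SE, edgeR adjusted p = 0.111, DESeq2 adjusted p = 0.00619) was also short of that threshold, and the groups overlapped for neither gene.

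Of 13 integrin activators and adaptors, 10 had negative and 3 positive log2 fold changes, the median was -0.41, and DESeq2 called 2 as lower. Lims2, also named PINCH2, which joins integrin-linked kinase to actin, had 60.2 ± 13.5 CPM in young and 25.4 ± 0.898 CPM in old (SD, n = 3 each), with -1.25 as log2 fold change (adjusted p = 0.0531 from edgeR). Itgb1bp2, the muscle protein melusin that binds the β1 tail, went from 10.3 ± 2.69 to 1.12 ± 1.10 CPM (SD, n = 3 each), with -3.20 as log2 fold change (adjusted p = 0.0924 from edgeR). Other integrin subunits with a row numbered 13, of which 9 had negative and 4 positive log2 fold changes. Their median was -0.33 beside -0.48 for the 8 members, and DESeq2 called Itga4 and Itga8 as lower and Itgb7 as higher. Itga8, a subunit for RGD ligands that is abundant in smooth muscle, had 445 ± 83.0 CPM in young and 129 ± 43.3 CPM in old (SD, n = 3 each), and its log2 fold change was -1.78 (edgeR adjusted p = 0.0557). Itga4 and Itgb7, whose products pair on leukocytes, had log2 fold changes of -5.44 (edgeR adjusted p = 0.111) and 2.50 (edgeR adjusted p = 0.127). Itga4 was at 0.886, 4.99 and 30.3 CPM in young libraries and at most 0.423 CPM in old ones. Whether the members differed from the other subunits was not tested.

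**Figure D5:**
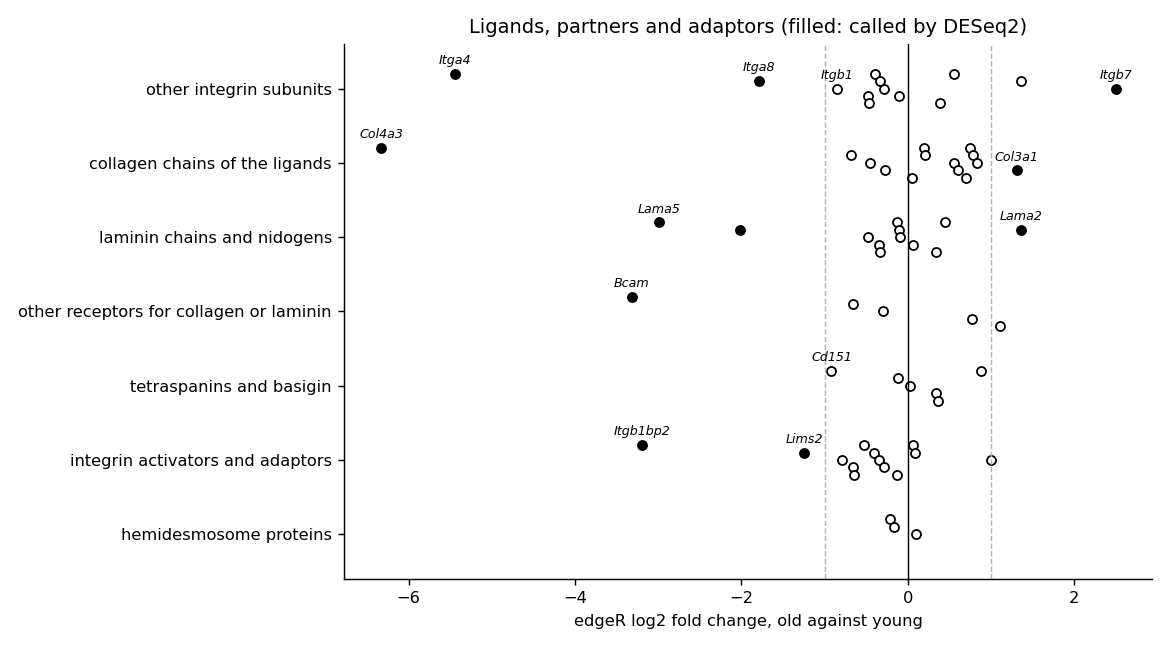
edgeR log2 fold changes of old against young for the 66 ligand, partner and adaptor genes in 7 lists, with filled circles for the 11 genes called by DESeq2 and dashed lines at the fold threshold. Lama5 and Lama2 lie on opposite sides of 0, and Itgb1 and Cd151 lie inside the lower dashed line.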

How the data were processed

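The authors trimmed reads with Cutadapt 3.5 through Trim Galore 0.6.7, aligned them to the rat assembly Rnor 6.0 with STAR 2.7.10b and counted genes with featureCounts of Subread 2.0.8. They deposited raw counts without normalization. The study's methods describe the removal of low-count genes, and 0 genes of the count table had under 10 counts in over 3 libraries. A gene without a row may therefore have had low counts, and shares of all genes refer to the 14475 genes with a row. How strand, multi-mapping reads and mates were handled was not given in the sources used here. Total counts of every library were above the number of reads per sample that the study's methods give. Whether mates were counted separately was not tested. Even numbers made up 68.7% to 71.1% of the low counts, from 1 to 19, which is why halved counts were tried. All 14475 genes, of which 1518 had no symbol, were tested with edgeR 4.0.16 in R 4.3.3 (TMM, quasi-likelihood F test, Benjamini-Hochberg over all genes, no covariates). As alternatives, DESeq2 1.42.0, which left 292 genes without an adjusted p, and limma-voom of limma 3.58.1 were run. SE is the size of the log2 fold change over the square root of F. Ratios and shares were tested with exact permutation tests (SciPy 1.17.1). No transcript lengths were at hand, so the planned level per length became counts not divided by length. Scripts were tested on simulated data with 200 of 14475 genes moved up or down by 2 log2 units, of which edgeR found 86% to 89% and DESeq2 94.5% to 97%. With no gene changed, edgeR called 0 genes and DESeq2 29 to 47. Libraries of a group differed beyond sampling noise, with chi-square values of 67.1 or more per gene. The study's methods give 3 rats per group, and the labels do not say which culture came from which rat, so p-values measure the spread between these cultures.

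The members and lists were chosen with earlier results of these data known. Named genes were the members, Itgb1, list genes called by either tool, and the listed gene with the largest fold change at a mean of at least 1 CPM. For each member at that level, the genes with the smallest root mean square distance in centered log2 CPM (prior count 2) were also named. Gene symbols are those of the table, which carries Ensembl gene IDs, whereas the methods name a RefSeq annotation. Which annotation was counted is therefore unsure, and promoters and overlapping genes were matched by symbol. Promoters are from RefSeq. Some items are not reported here.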

Additional observations from a re-analysis of the deposited data

How the results depend on the processing

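The 8 members gave 0 edgeR calls. The number was 1 among genes with at least 1 CPM in at least 3 libraries, 3 with an adjusted p under 0.1, 3 with DESeq2, 0 to 1 with each library left out and 2 to 3 in DESeq2 with each library left out, a combination chosen after seeing the data. The 66 listed genes gave 0 edgeR calls, and 2, 6, 11 and 0 to 6 under the same settings. DESeq2 gave 14, 8 and 13 of them without young replicate 1, 2 and 3 and 12, 12 and 9 without old replicate 1, 2 and 3, beside 5.09%, 3.81%, 4.15%, 9.51%, 4.24% and 4.50% of all genes. Old replicate 1 set the upper ends in edgeR, where Itga7 and 6 listed genes were called without it (732 of all genes against 1, beside 65 of 12233 with the CPM minimum and 805 with DESeq2). RLE size factors, library size only, halved counts, limma-voom, no minimum fold change and the replicate block left both numbers at 0. Of all genes, limma-voom called 0, and RLE size factors, library size only, halved counts and the replicate block called 1 each. The log2 fold changes of all members but Itga2 kept their direction. That of Itga2 was 0.25 without young replicate 1 and 0.32 without old replicate 2 in edgeR, and 0.24 and 0.32 in DESeq2, over a range of -0.53 to 0.32 in edgeR with each library left out. Left-out libraries moved the log2 ratio to Itgb1 between -1.13 and -0.36 for Itga1, between -0.70 and 0.075 for Itga3 and between -0.17 and 0.26 for Itga6. The cause was not tested. Same-numbered libraries had correlated deviations of 0.06, 0.32 and 0.31, and not every library correlated best with its own number. With 3 libraries per group, these values cannot tell whether same-numbered libraries share more than a number. With the block, Itga7 had a log2 fold change of -2.41 (adjusted p = 0.0746 from edgeR), and the collagen-binding share differed by 3.29 percentage points as without it (exact sign-flip p = 0.25, the smallest possible). The level per length was not run. Halved counts left the standard error of Itgb4 at 0.40, while its log2 fold change ran from 0.47 to 1.19 with each library left out.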

Other observations

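The genes whose pattern over the 6 libraries was most like that of each member were sought among 11436 genes with a symbol and at least 1 CPM, by the root mean square distance of centered log2 CPM, which is given here as a description. Camk2b and Pkig were nearest to Itga1, at 0.24 and 0.27. Pakap and Spata13 were nearest to Itga7, at 0.36 and 0.38, and the nearest member was Itga1 at 0.46. Pim2 and Larp1b were nearest to Itga3, at 0.08 and 0.12. Itga1, its nearest member, lay at 0.67 and Itgb1 closer, at 0.56. Itga6 was nearest to Pcdh7 and Jun, both at 0.20, and lay closer to Itgb1 (0.33) than to any other member (0.79 or more). Snn and Mob3c were nearest to Itga11 at 0.04 and 0.05, Lmo1 and Clec2d2l2 to Itga2 at 0.21 each, and Lgals3 and Boc to Itgb4 at 0.16 and 0.18. The median distance to all these genes ran from 0.33 for Itga11 to 1.24 for Itga7. Distances of different members are therefore not to be compared.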
